A study of Arabidopsis thaliana with 17 samples.

Results

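Distal intergenic sites are the stretches of open chromatin that lie between genes and far from any promoter. Peaks of DNase I cutting from 11 deposited lists were merged into 49442 sites wherever they overlapped or touched (gap 0 bp). A site was counted here when its centre lay outside every annotated gene of any type and more than 2000 bp from the nearest transcription start site (TSS) of a protein-coding gene. The pericentromeres and a stretch of chromosome 2 from 3.2 to 3.55 Mb were left out. There were 6178 such sites, which is 12.5% of all sites and 13.7% of the 44942 sites on the chromosome arms. The other 38764 arm sites, of which 23603 are intergenic but nearer to a start, serve as the comparison. Sites rest on called peaks, and among the sites position alone chose the members, with no score or rank used.

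DNase I cuts DNA where proteins other than nucleosomes hold it accessible, and in plants most such DNA sits just upstream of genes. Accessible DNA farther out can hold enhancers, which act on a promoter from a distance, and in the compact genome of Arabidopsis thaliana it can also belong to the end of a gene, to an unannotated start or to a non-coding gene. A site is named below by the protein-coding gene with the nearest TSS, which does not say that the site acts on that gene.

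All plants were in the Col-0 background or in an INTACT line given without a stated background, and every line carried the biotin ligase birA under the ACT2 promoter together with a nuclear envelope fusion protein (NTF), so that tagged nuclei could be captured by biotin. The GL2 promoter drove NTF in the seed coat at 7 days past anthesis (DPA, 1 list, pooled from 2 libraries) and at 4 DPA (2 lists, 1 of them pooled), and also in the root epidermal cells that bear no hair, called non-hair below (4 lists, replicate 2 from seedlings of 7 days and replicates 1, 3 and 4 of 10 days). The ADF8 promoter drove it in root hair cells of 7-day seedlings (2 lists, 1 of them pooled), and the UBQ10 promoter, active in most cells, in whole roots of 7-day seedlings (2 lists) and in open and unopened flowers (1 list each). Roots grew on sucrose plates and siliques and flowers on soil, so tissue and growth conditions cannot be told apart between seed coat and root. Nothing in the labels says that the lists of a group come from separate cultures, except that each pool joins 2 biological replicates, so p-values measure the spread between lists. The lists hold peaks and not reads, so a site open in few of the captured cells and a site cut weakly in all of them cannot be told apart.

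The lists held between 24751 (hair replicate 1) and 30110 (4 DPA replicate 1) peaks of 150 bp. As a check of the labels, peaks within 400 bp upstream of marker genes were read. Of 4 seed coat markers, TT2 and TT8, regulators of the pigment pathway, had one in 3 of 3 seed coat lists and in 0 of 8 root lists, MUM4, a mucilage gene, in all 11 lists and BAN, a pigment enzyme gene, in 0 of 11. Of 6 root hair markers, RSL4, EXPA7, EXPA18 and MRH1 had one in 0 of 3 seed coat lists and in 8 of 8 root lists, the 4 non-hair lists included. RHD6 had one in 3 of 3 seed coat, 2 of 2 hair, 0 of 4 non-hair and 1 of 2 whole root lists, and ADF8 in 3 of 3 seed coat, 1 of 2 hair, 0 of 4 non-hair and 2 of 2 whole root lists. The 6 therefore do not agree on hair against non-hair. Of 4 floral markers, AP3 and SHP2 had one in 3 of 3 seed coat lists and in no root list, AP1 in 3 of 3 seed coat lists and in 4 of 8 root lists, and SHP1 in no list. Of 4 markers of non-hair and seed coat epidermis, GL2 and TTG2 had one in all 11 lists, hair included. MYB66 (WER) had one in 1 of 4 non-hair lists only, and MYB5 in 2 of 4 non-hair and in every other list. Of 4 inner root markers, SCR had one in 2 of 2 hair, 4 of 4 non-hair, 0 of 2 whole root and 1 of 2 lists at 4 DPA. CASP1 had one in at least 1 list of every group, SHR in 1 of 2 whole root lists only and MYB46 in none. How much other tissue of the silique the seed coat capture holds was not tested.

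The sequences below show what distal sites of the main patterns look like. Each is the central 150 bp of a site, read 5′ to 3′ on the plus strand of TAIR10 (from the reference assembly TAIR10.1, whose nuclear sequences have the same lengths), with matches to the motifs listed further on in capitals, on either strand. The first 2 were open in all 11 lists.
ANAC087 (chr5:6045961-6046110): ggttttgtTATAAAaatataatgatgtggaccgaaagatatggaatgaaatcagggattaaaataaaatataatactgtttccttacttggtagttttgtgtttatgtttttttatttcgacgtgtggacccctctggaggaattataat
NCED3 (chr3:4841081-4841230): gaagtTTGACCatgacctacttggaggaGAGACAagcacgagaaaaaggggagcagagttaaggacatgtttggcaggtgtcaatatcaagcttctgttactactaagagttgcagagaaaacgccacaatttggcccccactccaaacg
The ANAC087 window holds a TATA-like match, and the NCED3 window a W-box and, on the minus strand, an auxin response element.
The next 2 were open in the 3 seed coat lists and in no root list.
TT7 (chr5:2558151-2558300): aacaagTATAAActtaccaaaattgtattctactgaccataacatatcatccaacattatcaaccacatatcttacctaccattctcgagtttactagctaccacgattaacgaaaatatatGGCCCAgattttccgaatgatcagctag
HB40 (chr4:17319731-17319880): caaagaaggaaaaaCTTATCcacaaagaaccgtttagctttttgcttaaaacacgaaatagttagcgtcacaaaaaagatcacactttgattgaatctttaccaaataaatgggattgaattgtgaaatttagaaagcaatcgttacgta
TT7 has a TATA-like match and a minus-strand site II element, and HB40 a minus-strand I-box.
The last 3 were open in the 8 root lists and in no seed coat list. AT5G45500 is the highest-ranked of them and has no match, and NRT1.1 and WRKY31 were taken from the 4 of the 10 highest-ranked root-only sites that hold a W-box, on the minus strand in NRT1.1 and on both strands in WRKY31.
AT5G45500 (chr5:18437711-18437860): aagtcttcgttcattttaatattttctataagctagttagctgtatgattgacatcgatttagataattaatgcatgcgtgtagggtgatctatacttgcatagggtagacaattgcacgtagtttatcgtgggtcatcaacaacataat
NRT1.1 (chr1:4102591-4102740): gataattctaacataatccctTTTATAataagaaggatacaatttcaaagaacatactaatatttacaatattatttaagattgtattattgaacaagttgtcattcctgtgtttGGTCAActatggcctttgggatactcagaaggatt
WRKY31 (chr4:11698501-11698650): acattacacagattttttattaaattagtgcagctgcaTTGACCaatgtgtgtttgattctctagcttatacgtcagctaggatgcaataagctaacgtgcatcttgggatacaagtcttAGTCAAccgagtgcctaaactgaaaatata

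The members lay at a median of 2856 bp from the nearest coding start (quartiles 2369 and 3633 bp), 441 lay beyond 5000 bp and 4 beyond 10000 bp, the farthest at 12969 bp. Distal DNA was not empty of open sites: per Mb of arm DNA there were 932 sites at 2001 to 3000 bp from a start, 872 at 3001 to 5000 bp and 634 beyond 5000 bp, against 1628 within 400 bp, 924 at 401 to 1000 bp, 904 at 1001 to 2000 bp and 249.8 inside genes. The threshold of 2000 bp marks no step, since 235 sites lay 2001 to 2050 bp from a start and 217 at 1951 to 2000 bp, of which 14.9% of those just inside and 12.4% of those just outside were in all 11 lists. Of the members, 3596 (58.2%) lay upstream of the nearest start and 2582 (41.8%) on the 3′ side of that gene. Neighbouring coding genes ran in tandem around 3263 members, diverged around 1517 and converged around 1396. Other gene parts were near for a minority: 934 (15.1%) lay within 300 bp past the end of a gene, and 377 (6.10%) lay within 400 bp of the start of a non-coding gene or pseudogene, 153 of them lncRNA, 51 tRNA and 17 miRNA genes. The remaining 5001 (80.9%) had neither. Another member was centred within 1000 bp of 4435 (71.8%), a value for which no comparison with even spacing was made.

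**Figure D1:**
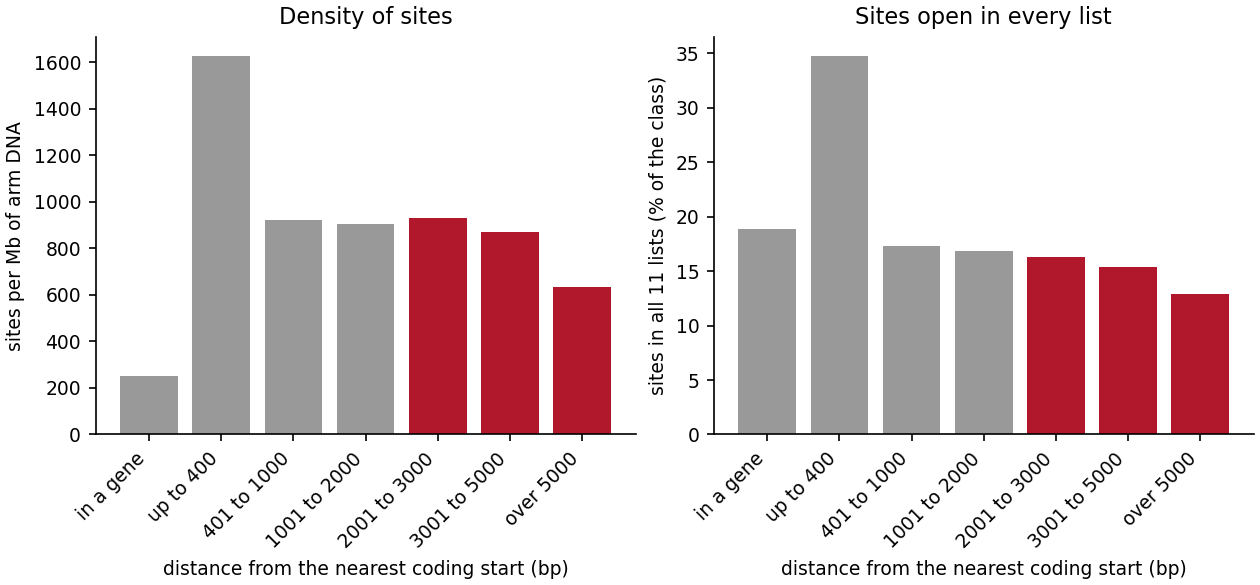
Left, sites per Mb of chromosome arm DNA by distance of the site centre from the nearest coding start (bp), and right, the percentage of each class found in all 11 lists; red bars are the distal classes and grey bars the others. Beyond 400 bp the density varies between 634 and 932 sites per Mb, and the share in all lists is 12.9% beyond 5000 bp, against 34.8% within 400 bp.

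Distal sites were shared by fewer lists than other sites. Of the 6178, 972 (15.7%) were in all 11 lists, against 8916 (23.0%) of the other arm sites, and 1193 (19.3%) against 6800 (17.5%) were in a single list. The share in all lists was high within 400 bp of a start (34.8%) and lay nearer that of the distal classes at 401 to 1000 bp (17.3%) and 1001 to 2000 bp (16.9%), against 16.3% at 2001 to 3000 bp, 15.4% at 3001 to 5000 bp and 12.9% beyond. Within each list, the median number of other lists that held a site was taken for its distal and its other sites, and its mean over lists was 7.55 ± 0.688 for distal and 8.73 ± 0.467 for other sites (SD, n = 11 lists), a difference of -1.18, lower in 10 lists and tied in 1 (exact sign-flip permutation over lists, two-sided, p = 0.00195, adjusted p = 0.00586 over 9 tests). With mean numbers in place of medians the difference was -0.533, lower in 11 of 11 lists (adjusted p = 0.00439, same exact test). The number of lists belongs to the site and the lists share many sites, so the differences per list are not independent. These p-values therefore do not measure a spread between independent replicates. By the same exact test the median difference was no longer called among the lists of single libraries (-0.25, adjusted p = 0.5) or with the best peaks of each list only, as many as the shortest list holds divided by 2 (-0.636, adjusted p = 0.281).

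Distal sites shared by a seed coat and a root list made up 38.1% of those in either (mean of 24 pairs), against 48.2% for other sites, and every pair had the lower value for distal sites. Among root lists the shared percentage was 68.6% for distal and 70.8% for other sites, lower in 26 of 28 pairs, and among seed coat lists 66.4% for distal and 72.4% for other sites, lower in 3 of 3. Pairs share lists, so these values are given without a test.

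The share of a list's arm sites that were distal was 11.6% in the 7 DPA seed coat pool, 11.8% in 4 DPA replicate 1 and 12.3% in the 4 DPA pool. It was 13.7% and 14.7% in the whole root replicates, 12.9% in hair replicate 1 and 12.8% in the hair pool, and 12.5%, 12.5%, 12.0% and 11.9% in non-hair replicates 1 to 4. Both whole root values were above all 6 epidermal values and both hair values above all 4 non-hair values, while seed coat and non-hair values overlapped. Whole roots exceeded the epidermal lists by 1.74 percentage points (exact permutation, two-sided, p = 0.0714, the smallest possible, adjusted p = 0.0918), and hair exceeded non-hair lists by 0.661 points (exact permutation, two-sided, p = 0.133, the smallest possible, adjusted p = 0.15). Seed coat lists, at 11.9% ± 0.363 (SD, n = 3), and root lists, at 12.9% ± 0.920 (SD, n = 8), differed by -0.953 points (exact permutation, two-sided, p = 0.0606, adjusted p = 0.0909), and seed coat and non-hair lists by -0.297 points (exact permutation, two-sided, p = 0.286). No difference in share passed 0.05 after adjustment.

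**Figure D2:**
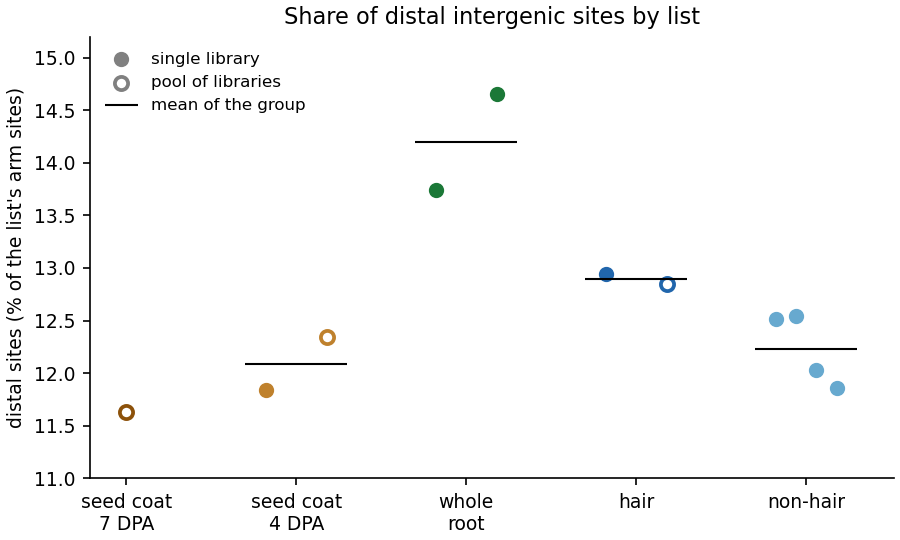
Distal sites as a percentage of the arm sites of each list, by group; filled points are lists of single libraries, open points are pools and lines are group means, and the axis starts at 11%. The whole root lists, at 13.7% and 14.7%, stand above the other 9, which range from 11.6% to 12.9%.

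The ranks of distal peaks within their lists were close to those of other peaks. The rank percentile places a peak among the peaks of its list by the authors' score, 100 being the highest. Medians of distal sites averaged 53.4 ± 2.79 and those of other sites 50.6 ± 0.553 (SD, n = 11 lists), a gap of 2.82 points with 7 lists higher, 3 lower and 1 tied (exact sign-flip permutation, two-sided, p = 0.0234, adjusted p = 0.0527). The other arm sites include those inside genes, and the intergenic sites within 2000 bp had medians of 54.2 to 55.3 by list. The gap turned to -3.39 points for the 441 sites beyond 5000 bp (adjusted p = 0.00879, same exact test). Mean GC content in the central 150 bp was 33.8% ± 0.632 in distal and 34.8% ± 0.543 in other sites (SD, n = 11 lists), lower in 11 of 11 lists (difference -0.968 points, exact sign-flip permutation, two-sided, adjusted p = 0.00439). GC content is fixed for a site and the lists share many sites, so the differences per list are not independent. That p-value therefore does not measure a spread between independent replicates. The other sites include those in genes (35.6% GC). Intergenic sites at 401 to 1000 bp and 1001 to 2000 bp from a start had 33.4% and 33.5%, close to the 33.5%, 33.4% and 33.2% of the distal classes in order of distance. Distal DNA outside every site had 29.0% GC (32135 windows of 150 bp).

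Seed coat and root differed at many distal sites. A site is called seed coat-only where all 3 lists of the seed coat held it and each of the 8 root lists lacked it, and root-only in the reverse case. There were 391 seed coat-only distal sites (6.33% of the members, against 6.01% of all sites of the series) and 507 root-only ones (8.21%, against 6.15% of all sites). The seed coat-only share is near the share of all sites. The median distance from a coding start was 2896 bp for seed coat-only and 2899 bp for root-only sites, near that of all members. A peak of the other tissue lay within 100 bp of 12.5% of the seed coat-only and 8.09% of the root-only distal sites, and the median gap to the nearest such peak was 550 bp for seed coat-only and 750 bp for root-only sites. Fisher's exact test at each site, two-sided and adjusted over all 49442 sites, is no separate support. With 3 against 8 lists its smallest p (0.00606) needs full separation, so its calls repeat the rule by construction. The calls held the same 898 distal sites, at the smallest adjusted p of 0.0499, and made up 12.2% of all sites of the series. An unadjusted p under 0.05 was found at 1208 distal sites. Without any 1 of the 11 lists that test made 0 calls. Without the 7 DPA pool the seed coat-only rule gave 682 distal sites (11.3%). The share of all sites under that omission is not given here, so this count does not compare distal with all sites.

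**Figure D3:**
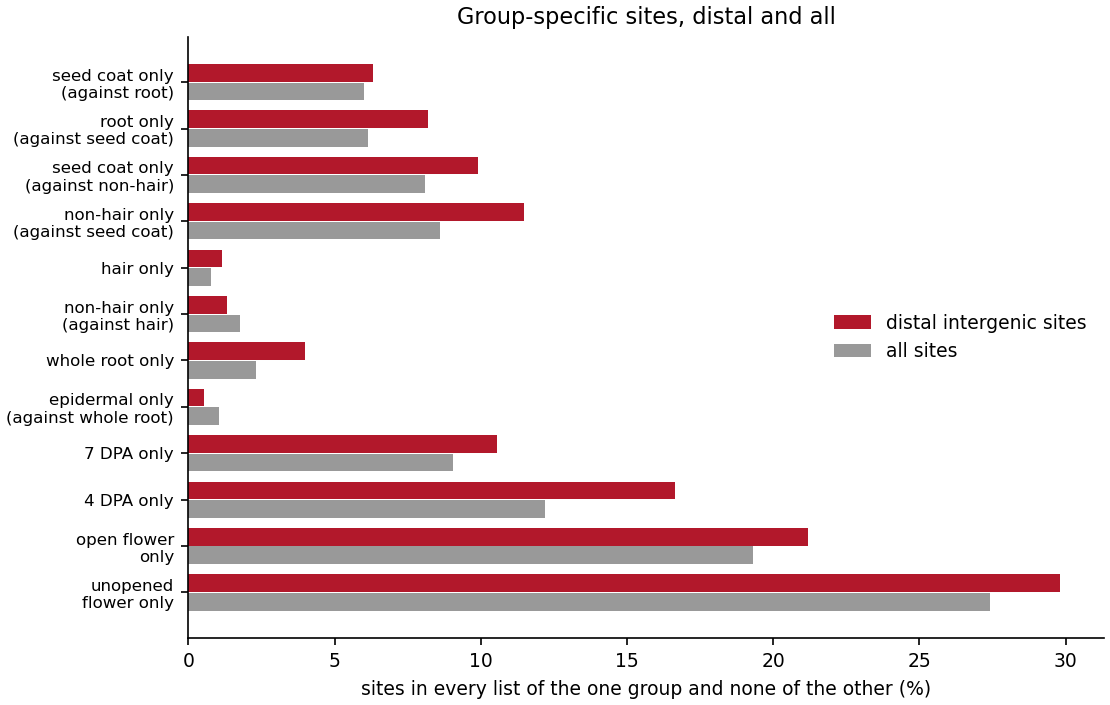
Percentage of sites found in every list of 1 group and no list of the other, for distal sites (red) and all sites of the series (grey), for each comparison from top to bottom. The red bars exceed the grey ones except for non-hair-only sites against hair and epidermal-only sites against whole root.

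Among the seed coat-only distal sites, those of TT7, HB40, APS1 and HAT9 ranked at the top. The site at chr5:2558121-2558330 lay 2102 bp upstream of TT7, the flavonoid 3′-hydroxylase of the seed coat pigment pathway, with rank percentiles of 98.2 at 7 DPA and 98.8 and 99.0 at 4 DPA. A site 3365 bp upstream of HB40, a homeobox gene, ranked 96.6 at 7 DPA and 97.4 and 98.1 at 4 DPA and was also in both flower lists. APS1, an ATP sulfurylase gene of sulfate assimilation, had a site 2978 bp upstream at chr3:8109561-8109710 with 98.5 at 7 DPA and 95.8 and 97.1 at 4 DPA, and that site lay 1564 bp from the start of MIR167a, a miRNA gene. By the rule these sites have no root peak, and the nearest root peak lay 410, 450 and 630 bp from those of TT7, HB40 and APS1. HAT9, a homeobox-leucine zipper gene (98.1 on average), FAH1, the ferulate 5-hydroxylase of lignin and sinapate synthesis (96.9), AT1G14590 (96.6) and AT5G44660 (95.4) followed or stood among them, but a root peak lay within 90, 70, 10 and 50 bp of these sites. CIPK5 (96.5), a protein kinase gene, had its site within 269 bp past the end of the neighbouring gene AT5G10920, and AT1G14590 within 261 bp past its own end. ILR2, named for resistance to an auxin conjugate (96.4), and AT1G12330 (95.7) complete the 10. Of these 10 sites, 7 were in at least 1 flower list.

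The highest-ranked root-only distal sites were led by chr5:18437681-18437890, 2262 bp upstream of AT5G45500, with rank percentiles from 97.7 to 99.9 in the 8 root lists (median 99.7). NRT1.1, the dual-affinity nitrate transporter and sensor, had a site 2557 bp upstream at chr1:4102501-4102830 that ranged from 87.1 to 99.8 (median 98.4). Sites of the WRKY factor genes WRKY29 (2366 bp upstream, 91.9 to 99.6, median 98.0) and WRKY31 (3986 bp upstream, 91.9 to 98.9, median 97.3) had no seed coat peak within 2510 and 3590 bp. A site between HRS1, a regulator gene of phosphate and nitrate responses, and AT1G13310 ranged from 88.1 to 99.7 (median 99.5). Another lay between GATL3 and RAV1, an AP2/B3 factor gene, and ranged from 95.3 to 99.6 (median 98.5). AT3G25790, a myb-like factor gene, AT1G67210, the cytochrome P450 gene CYP705A12 and the lectin gene AT1G78850 had mean percentiles of 97.3, 96.8, 96.3 and 96.1. These 10 were chosen for their mean rank in the root lists, and 0 of the 10 were in a flower list.

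Against non-hair cells alone, whose nuclei were tagged through the same GL2 promoter, 549 distal sites were seed coat-only (9.90% of those tested, against 8.08% of all sites) and 637 non-hair-only (11.5%, against 8.59%). Without the 7 DPA pool the seed coat-only count was 926 (17.3%), with no share of all sites set beside it. The highest-ranked 5 were, in each direction, TT7, HAT9, HB40, APS1 and FAH1 for seed coat and AT5G45500, AT1G13310, GATL3, WRKY29 and AT3G25790 for non-hair, all of them described above.

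Hair and non-hair cells of the root epidermis differed at few distal sites. Of 4157 distal sites, 48 were hair-only, held by both hair lists and lacking from the 4 non-hair lists (1.15%, against 0.779% of all sites), and 55 were non-hair-only by the reverse rule (1.32%, against 1.77% of all sites), while 1963 were in all 6 lists. Hair-only sites were led by GSTU8, a glutathione transferase gene, with a mean rank of 86.1 over 4 root lists, AT5G65660 beside IAA9 (a peak of another list 30 bp away), AK-HSDH II, AT4G16610 and ARF19, an auxin response factor gene with a role in root hair growth (in 4 lists, mean 55.5). The order is by the mean over every list that holds the site, so AT4G16610, at 22.9 and 21.1 in the hair lists, stands there through its seed coat ranks of 66.4 to 95.4. Non-hair-only sites were led by OEP16-1, MYB7, AGL6, AT3G22970 and AT1G29660, and all 5 had a peak of a list without the site within 70 bp. Of the 55 non-hair-only sites, 29.1% had a hair peak within 100 bp, and of the 48 hair-only sites 8.33% had a non-hair peak that near. Mean GC content was 30.4% in hair-only and 37.2% in non-hair-only sites, and among other arm sites 30.0% in hair-only and 37.8% in non-hair-only ones. These counts rest on few lists, since without hair replicate 1 there were 126 hair-only and 110 non-hair-only sites, without the hair pool 150 hair-only and 133 non-hair-only, without non-hair replicate 2 there were 75 hair-only and 88 non-hair-only, and without non-hair replicate 1 the hair-only count was 73. Shares of all sites under these omissions are not given here, so the counts show only how far they move. Hair lists came from 7-day and 3 of the 4 non-hair lists from 10-day seedlings, so cell type and age are partly tied.

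Whole roots had distal sites that the epidermal lists lacked, and few the other way. Both whole root lists and none of the 6 epidermal lists held 196 distal sites (3.98% of 4921, against 2.31% of all sites), and all 6 epidermal lists and no whole root list held 26 (0.528%, against 1.03% of all sites). Of the whole root-only sites, 23.1% of those on the arms were distal. The 196 ranked low, with a median of 19.0 for the mean of both whole root lists. Of the 196, 101 (51.5%) were in no seed coat list and 45 (23.0%) in all 3, against 34.9% in no seed coat list and 34.7% in all 3 among all members. The best by their mean rank in the whole root lists, named after values were seen, began with AT3G57400, at 70.7 and 79.2 in the whole root lists and 53.2 to 75.9 in the seed coat lists. AT2G26695 (35.3 and 95.7), AT5G48570 (64.7 on average), GLT1, a glutamate synthase gene of nitrogen assimilation (57.3 and 68.7), and AT1G68360 (51.7 and 69.3) followed and were in no other list. A peak of a list without the site lay within 130 bp of these sites except AT2G26695. The epidermal-only sites were led, by mean rank in the epidermal lists, by AT1G68490, LBD18, PMD2, AT3G13600 and RXF26. The whole root-only count rose to 567 without whole root replicate 1 and to 409 without replicate 2. The epidermal-only count was 93, 94 and 41 without whole root replicates 1 and 2 and hair replicate 1. Shares of all sites under these omissions are not given here either.

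Between stages of the seed coat no test is possible, because 7 DPA is represented by 1 pooled list. Of 4022 distal sites, 424 were in the 7 DPA list and in neither 4 DPA list (10.5%, against 9.05% of all sites). In the reverse case, 670 were in both 4 DPA lists and not in the 7 DPA list (16.7%, against 12.2% of all sites). Root lists did not enter this rule, and 214 distal sites were in the 7 DPA pool and in no other list. The top site of each stage lay beyond the same gene, LUL3, a RING finger gene, at chr5:6382381-6382530 with 98.8 at 7 DPA and at chr5:6382621-6382770 with 99.4 and 99.9 at 4 DPA, 90 bp apart. ARF10, an auxin response factor gene, likewise had a 7 DPA site (96.9) and a 4 DPA site (97.1 and 94.1) 30 bp apart. At 7 DPA these were followed by GIS, a trichome zinc finger gene (98.3), AT1G62480 (97.8) and RR3, a cytokinin response regulator gene (79.1), whose place in the order of means rests on the root lists (median 98.6). At 4 DPA they were followed by EXGT-A3, a wall-modifying enzyme gene beside the cytokinin receptor gene WOL (98.0 and 99.1), ANT, a growth regulator of ovules and organs (90.9 and 97.8), and EDA12 (95.8 and 95.8). All 10 had a peak of a list without the site within 190 bp.

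Among the 972 sites of all lists, the highest-ranked lay at chr2:3421-3570, 2471 bp from AT2G01008 and 210 bp from an rRNA gene start, with percentiles of 99.9 or more in the seed coat lists and 99.4 or more in the root lists. Among the next were sites beyond SPDS2, a spermidine synthase gene (98.9 on average), upstream of ANAC087, a NAC factor gene of programmed cell death in the root cap (98.8), near CDKD1;1 and MIR159a (98.1), beyond AT2G22426 toward HB6 (98.1), near the kinase gene AT5G18610 (97.9), within 190 bp past the end of AT3G60680 (97.8), upstream of BRG1 (97.5) and beyond AT1G21000 (97.5). These 9 were also in both flower lists. The sites of all lists that lay farthest from a coding start were 9364 bp upstream of SUC1, a sucrose transporter gene, then 8730 and 8150 bp from AT5G19100, 8625 bp from AT4G21366, 8173 bp from AT1G30930 in the gap shared with the floral gene UFO, 7997 bp from AT4G13500, 7683 bp upstream of CID9, 7412 bp from NAT7, 7141 bp upstream of NCED3 and 7024 bp from AT1G29640. Of these, 4 lay close to the start of a non-coding gene: 303 and 277 bp from a tRNA gene, 448 bp from a miRNA gene and 305 bp from an lncRNA gene.

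NCED3, the drought-induced gene of abscisic acid synthesis, shares its long divergent gap with CID9, and both had many distal sites (10 and 9). The site 7141 bp upstream of NCED3 ranked 2.7 at 7 DPA and 13.1 and 8.0 at 4 DPA, against 47.8 to 85.7 (median 57.9) in the 8 root lists. The site 7683 bp upstream of CID9 ranked 23.4 at 7 DPA and 1.0 and 15.7 at 4 DPA, against 68.9 to 97.3 (median 87.3) in the root lists. The tissues did not overlap at either site although every list held it. Among the farthest sites of all lists they also did not overlap at both AT5G19100 sites and at NAT7, there with the seed coat higher. At NAT7 ranks were 64.1 to 73.9 in the seed coat and 9.15 to 54.5 in the root lists. How many of all sites show such a gap was not counted. Ranks compare places within lists, not amounts of cutting.

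**Figure D4:**
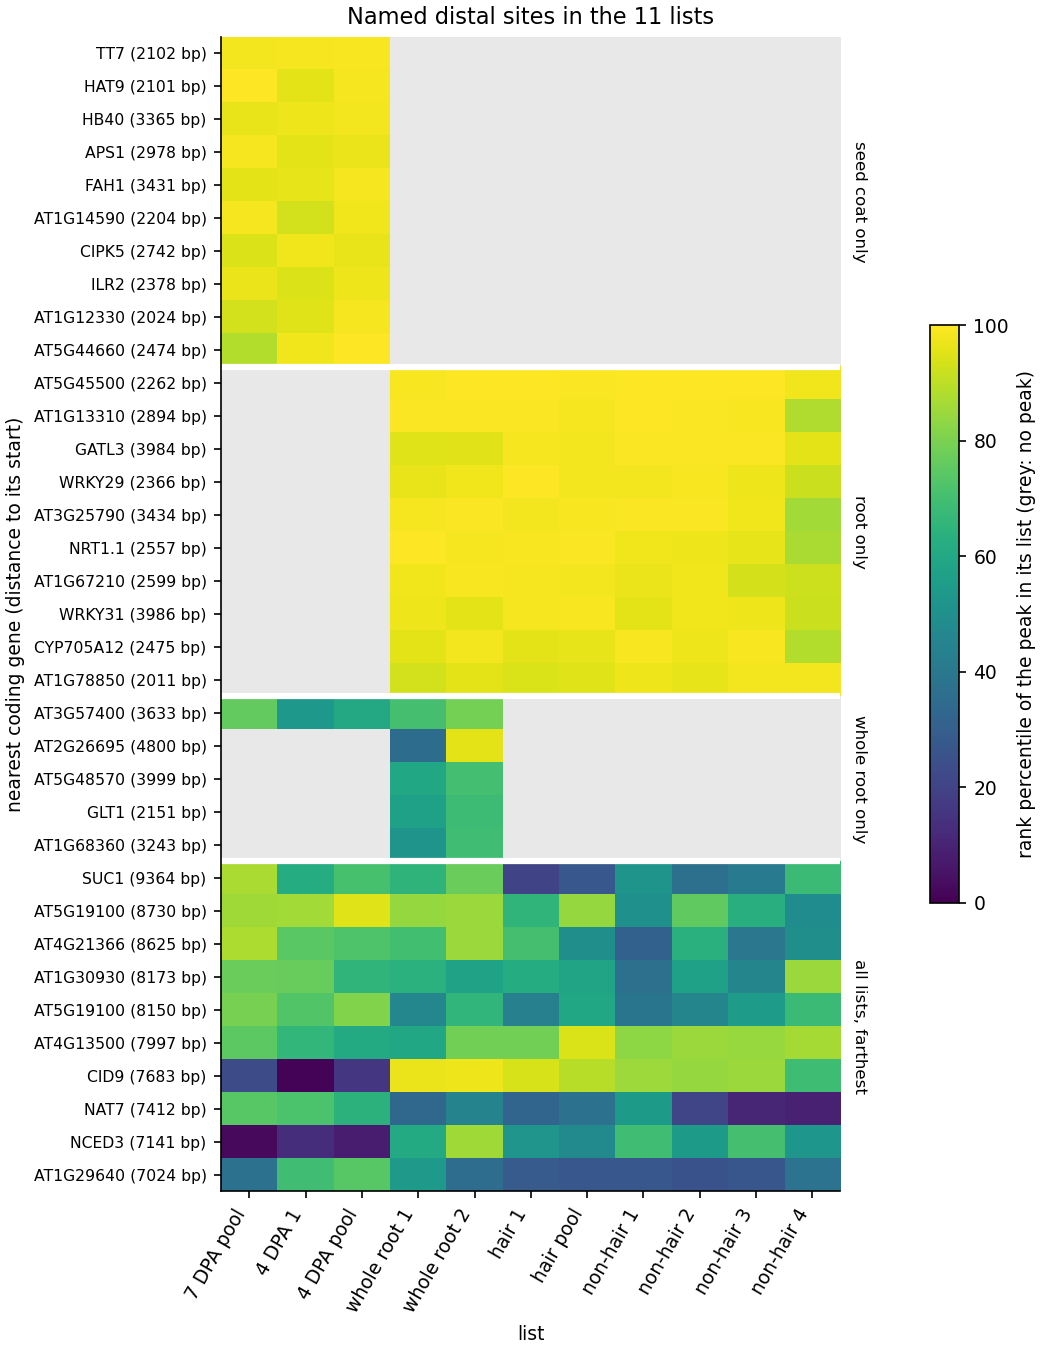
Rank percentile (colour) of 35 named distal sites in the 11 lists, grey where a list has no peak; labels give the nearest coding gene and the distance to its start in bp, and blocks from top to bottom are seed coat-only, root-only, whole root-only (against the epidermal lists) and in all lists farthest from a start. In the third block, ordered by rank in the whole root lists, 4 of the 5 sites have no peak in a seed coat list.

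The composition of distal sites differed between tissues. Short motifs of known factor families were sought on both strands in the central 150 bp of each site, and the percentage of a list's distal sites with the motif was compared between 3 seed coat and 8 root lists. The W-box of WRKY factors (TTGACC or TTGACT) was in 18.6% ± 0.709 of distal sites of seed coat lists (18.1% to 19.4%) and 27.2% ± 1.5 of those of root lists (24.5% to 28.4%). The TATA-like run (TATAAA) was in 24.8% ± 0.593 of distal sites of seed coat lists and 29.8% ± 0.589 of those of root lists (SD, n = 3 and 8 lists). The GCC box of ERF factors (GCCGCC) was in 0.840% in seed coat and 1.04% in root lists. Higher in seed coat lists were the G-box (CACGTG), bound by bZIP and bHLH factors, with 9.34% in seed coat and 7.21% in root lists, and the site II element of TCP factors (TGGGCC or TGGGCT), with 23.4% in seed coat and 20.5% in root lists. The auxin response element (TGTCTC) was in 10.3% of seed coat and 8.58% of root distal sites, the CArG box of MADS factors in 2.34% of seed coat and 1.35% of root ones, and the L1 box (TAAATGCA or TAAATGTA), bound by HD-ZIP IV proteins of the epidermis, in 3.38% of seed coat and 2.82% of root ones. In each of these 8 motifs the values of the groups did not overlap (exact permutation, two-sided, p = 0.0121, the smallest possible, adjusted p = 0.0197 over 13 motifs). The GAGA repeat (GAGAGAGA) also passed (2.88% in seed coat and 2.36% in root lists, adjusted p = 0.0350, same exact permutation test). By that exact test the I-box (GATAAG, 7.96% in seed coat and 8.86% in root lists, adjusted p = 0.0788), the telo box (AAACCCTAA), the evening element (AAAATATCT) and the DRE core (CCGAC, 9.79% in seed coat and 9.67% in root lists, adjusted p = 0.630) did not. Without any 1 of the 3 seed coat lists 0 motifs were called, where the smallest possible exact p is 0.0444 with 2 against 8 lists and the adjusted p of the W-box was 0.0578 or 0.0722. Other arm sites showed the same signs for the 9 called motifs, and the tissues' difference was -7.13 points for the W-box there, against -8.58 points in distal sites.

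**Figure D5:**
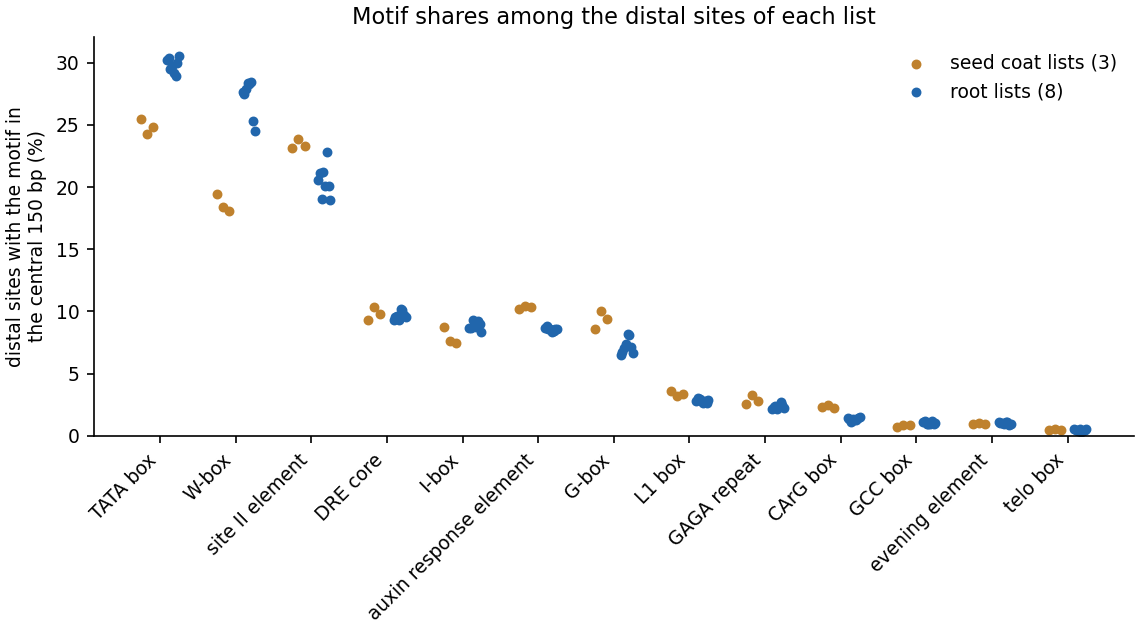
Percentage of the distal sites of each list that hold a motif in their central 150 bp, 1 point per list, seed coat lists (3, orange) left of root lists (8, blue). The W-box points lie between 18.1% and 19.4% for seed coat and between 24.5% and 28.4% for root lists.

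The motif content of separating sites is given as a description with no test. The W-box was present in 11.8% of the seed coat-only and 38.3% of the root-only distal sites, and in 13.1% of distal windows outside every site. Among other arm sites it was present in 12.8% of the seed coat-only and 43.0% of the root-only ones, a gap no smaller than in distal sites. Site II matches were present in 6.65% of the seed coat-only and 3.75% of the root-only sites, but in 36.6% of distal sites of all lists, 5.78% of those in a single list and 2.83% of windows outside sites. The G-box was in 10.9% of distal sites of all lists and 1.17% of windows outside sites, and the TATA-like run in 25.3% of distal sites of all lists and 35.3% of windows outside sites. The W-box was in 13.3% of whole root-only and 46.2% of the 26 epidermal-only distal sites. The seed coat-only distal sites had a mean GC content of 34.0% and the root-only ones of 31.2%, so base composition moved with the motif shares, and its part in them was not tested.

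The flower lists, made at full and unknown depth with 11748 peaks in open and 13098 in unopened flowers, took no part in choosing the sites. Open flowers held 1354 distal sites (21.9%, against 23.0% of other arm sites) and unopened flowers 1447 (23.4%, against 25.5%). Both held 1006 distal sites (16.3%, against 18.1% of other arm sites). Of the 972 distal sites of all 11 lists, 553 (56.9%) were in both flower lists. Open flowers held 67.4% of these 972, against 64.0% of the other sites of all lists. Unopened flowers held 64.6% of them, against 64.5%. Open flowers held 20.5% of the seed coat-only and 2.96% of the root-only sites, and unopened flowers 29.2% of the seed coat-only and 2.37% of the root-only ones. Among other arm sites, seed coat-only ones were held at 13.3% in open and 23.8% in unopened flowers. With the flower lists merged on their own, 428 distal sites were in open flowers only (21.2%, against 19.3% of all sites) and 602 in unopened flowers only (29.8%, against 27.4%), with 1 list each and no test. Flower peaks at distal positions that met no site of the 11 lists numbered 49 in open and 118 in unopened flowers.

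The members were assigned to 3023 genes, of which 1549 had a single distal site and 227 had 5 or more. Genes whose product text names a transcription factor, a search chosen after values had been seen, made up 11.4% of the genes with a distal site and 16.3% of those with 5 or more, against 4.60% of all coding genes of the arms. These genes also had more distal DNA: 49.5% of the 1107 factor genes had any intergenic DNA beyond 2000 bp assigned to them, against 25.6% of the 22952 other genes, with a median of 1142.5 bp for factor genes and 645 bp for other genes where there was any. Per Mb of that DNA they had 1012 sites against 863 of the other genes. The genes with the most distal sites were CYP71A16, a cytochrome P450 gene (13, 0 of them in all lists), AT5G47050 (11), and, with 10 each, AT1G19835, AT1G19840 and TEM1, a repressor of flowering, along with 5 more genes, among them NCED3 and the trihelix factor gene GT2.

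Lists of genes chosen for these tissues were then read for distal sites, with the highest by mean rank over the lists that hold them and every site that was seed coat-only or root-only. Among 16 flowering genes 8 had distal sites, 26 in all. TOE1, an AP2-like repressor of flowering, had the highest, a root-only site at chr2:12224121-12224370 (96.1). TEM1 had 10, led by a site 2648 bp away on its 3′ side in all 11 lists (95.6), and 2 of its upstream sites were root-only (74.5 and 54.2). TSF, a relative of FT, had a seed coat-only site (57.8). FT, the mobile flowering signal, had a site 3993 bp away on its 3′ side in 7 lists, which ranked 27.6 at 7 DPA and 16.0 and 3.73 at 4 DPA, against 0.437 to 7.37 in 4 root lists.

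Of 14 meristem and boundary genes 9 had distal sites. CUC3, a boundary gene, had 2 seed coat-only sites (74.4 and 66.0) and 2 in all lists, and BOP2, a gene of organ boundaries, had 7 sites, of which 3 were root-only (71.1, 55.9 and 44.7). WUS, the stem cell regulator of the shoot, had a site 3745 bp away on its 3′ side in all 11 lists, which ranked 94.5 at 7 DPA and 99.3 and 90.5 at 4 DPA, against 11.5 to 50.4 (median 21.1) in the 8 root lists. The ranks of the tissues did not overlap there, which also held at other all-list sites of the gene lists. Seed coat was higher at a CUC3 site (78.5 to 85.2, against 1.86 to 50.4 in root lists). Root was higher at the constitutive gene ACT7 (73.1 to 85.1, against 21.3 to 52.1 in seed coat lists). How many sites show such a gap was not counted.

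Root patterning genes had distal sites in 11 of 19 cases. ARF5, an auxin response factor gene of embryo and root formation, had 6 sites, 1 of them in all lists (71.8). PLT1, a regulator of the root stem cell niche, had a root-only site 5868 bp upstream (62.7) and a seed coat-only site 2508 bp upstream (57.6), and its relative PLT2 a seed coat-only site (49.3) with no root peak within 10430 bp. Root hair genes had distal sites in 3 of 13 cases, and none of their 6 sites was seed coat-only or root-only. RHD6, a regulator gene of root hair formation, had one 2462 bp away on its 3′ side in all lists (82.5). LRL1, a transcription factor gene needed for hair development, had one in 10 lists that ranked 84.4 to 95.8 in the seed coat lists and 5.3 to 53.5 in 7 root lists. The genes listed for the choice between hair and non-hair fate, which act for or against non-hair fate, had them in 5 of 14 cases. ZFP5, a zinc finger gene, led with a site in all lists that ranked 35.2 to 63.4 in seed coat and 91.5 to 99.1 in root lists, and root-only sites lay at TRY, an inhibitor of the complex that promotes non-hair fate (83.0), and MYB23 (49.2).

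Seed coat genes had distal sites in 5 of 15 cases, with sites in all lists at AP2 (90.9) and MYB61, a mucilage regulator (80.2). Seed coat-only sites lay at NAC2 (55.6) and TT10, the laccase of pigment oxidation (35.6), and a root-only site at MYB61 (12.1). The auxin genes had them in 9 of 21 cases. Beside the ARF10 sites given above, ARF6 had one in all lists (87.3). Seed coat-only sites lay at ARF6 (71.8) and ARF10 (68.6), and a root-only site at ETT, also called ARF3 (20.2). Stress regulators had them in 6 of 15 cases, led by 2 sites of WRKY53, in all lists (78.2) and in 10 (71.9), with root-only sites at ERF1 (65.1), WRKY70 (42.5) and WRKY18 (36.0). Floral MADS genes had them in 4 of 12 cases, none seed coat-only or root-only, led by AP1, with 4 sites of which the best was in 1 list (93.2), and TT16, in all lists (71.9). Constitutive genes had them in 4 of 10 cases, where TUB2 had a seed coat-only (85.6), a root-only (56.7) and an all-list site (63.6) and ACT7 an all-list site (66.4). Over all coding genes of the arms 12.6% had a distal site. The lists also differed in distal DNA, and per Mb of it they ranged from 659 sites for root patterning to 1575 for stress regulators, with 901 for constitutive genes.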

How the data were processed

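DNase-seq was done on nuclei captured by biotin from tagged lines, and small double-cut fragments were sequenced, per the labels' protocols. Bowtie 0.12.7 and the build TAIR10 are named in the submitters' processing notes, while how peaks were called, and at what threshold, is not given in the sources used here. The 22 deposited peak lists hold 11 with the mark 6.8M, 3 with 6.65M and 8 unmarked. The mark was read as a common number of reads, which no label states, and for the unmarked lists depth is unknown. In each list the authors give a peak score, used here only to rank peaks within a list, and in the unmarked lists also a deposited −log10 p per peak, which was not used. The pools, per the series design text, join replicates 2 and 3 of hair, 3 and 4 of 4 DPA and 1 and 2 of 7 DPA. Replicates 1 and 2 at 4 DPA are runs of 1 library, counted once.

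Peaks of the 11 lists at 6.8M were merged (gap 0 bp), and a list held a site where a peak overlapped it by at least 1 bp. Genes and sequences came from RefSeq on TAIR10.1, with 27444 protein-coding genes and 37899 genes of any type. The left-out pericentromeres span 11.5 to 17.7 Mb on chromosome 1, 1.1 to 7.2 on 2, 10.3 to 17.3 on 3, 1.5 to 6.3 on 4 and 9.0 to 16.0 on 5. Comparisons over lists used exact two-sided permutation or sign-flip tests with Benjamini-Hochberg adjustment over 9 tests or 13 motifs, and Fisher's exact test per site was adjusted over all 49442 sites. The tests were tried on simulated data first. Python 3.11.15, numpy 2.4.6, pandas 2.3.3, scipy 1.17.1 and matplotlib 3.10.9 were used.

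The members, gene lists and motifs were chosen with earlier results of these data known. Named sites were the 10 highest by mean rank and the 10 farthest from a start among those in all lists, the 10 highest in each direction of seed coat against root, the 5 highest of the non-hair, hair and stage comparisons, the 2 to 4 highest per gene list and the 5 genes with most sites. Whole root sites, the lower-ranked sites of gene lists (FT, WUS, LRL1 and the seed coat-only or root-only ones) and the factor search were chosen after values were seen. Some gene symbols were matched to loci by hand, and RSL3, RSL5, SBT1.7, EF1A and SAND were not matched. The sites at the fixed threshold were recomputed at other distances, peak numbers, overlaps and windows, with lists left out and with single libraries only. Of the 10 highest sites of all lists, 1 is not reported here.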

Additional observations from a re-analysis of the deposited data

Results flagged for a closer look

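The gap in median rank percentile between distal and other sites of a list differed between tissues. It averaged -0.888 ± 0.784 points in the seed coat lists (SD, n = 3) and 4.21 ± 2.67 points in the root lists (SD, n = 8), a difference of -5.10 points. The exact two-sided permutation test over lists gave p = 0.0364, which is 0.0655 after adjustment over 9 tests and so does not pass. Per list the distal medians were 49.9 at 7 DPA, 49.8 and 51.4 at 4 DPA, 56.3 and 55.6 in whole root, 57.0 and 56.0 in hair, and 54.5, 54.5, 52.7 and 49.8 in non-hair lists. Non-hair replicate 4, the root list with most peaks (29089), had a distal median within the range of the seed coat lists. The gap was 6.84 points in the shortest list (24751 peaks) and -1.18 in the longest (30110). At near-equal length it was 5.86 in whole root replicate 1 (26837 peaks), 2.31 in non-hair replicate 3 (26947) and -1.48 in the 7 DPA pool (27036). The relation of the gap to the number of peaks was not tested. With each list cut to the length of the shortest, the tissues differed by -3.85 points (exact permutation, adjusted p = 0.0873).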

How the results depend on the processing

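No paired analysis was possible because the groups share at most 1 replicate number, except whole root and the 2 epidermal cell types, whose numbers define no pairs. Of 593 recomputed values, 452 kept their direction and call or stayed within the stated limits, 36 grew weaker, 21 stronger, 16 changed sign and 68 moved. The cause was not tested, save that other distances change the number of sites by construction.

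Beyond 1000 bp from a start there were 12153 sites, with counts of 831 seed coat-only and 985 root-only, 1091 seed coat-only and 1221 non-hair-only, 96 hair-only and 111 non-hair-only, 366 whole root-only and 57 epidermal-only, and 874 for 7 DPA and 1249 for 4 DPA. Shares of all sites do not depend on this distance. Shares of the members are not given, so the counts at each distance do not compare distal with all sites. Beyond 1000 bp the rank difference between distal and other sites was 3.97 points and called (adjusted p = 0.0176, exact). The telo box difference was -0.0104. Beyond 3000 bp there were 2713 sites, with counts in the same order of 178 and 234, 243 and 283, 24 and 20, 94 and 10, and 189 and 288. The tissues' rank gap was -6.05 points and called (adjusted p = 0.0436, exact), the DRE core difference -0.0482 and the open flower share 20.6%. Beyond 5000 bp there were 441 sites, with counts of 37 and 39, 53 and 50, 4 and 4, 25 and 2, and 26 and 50. There the rank difference was -3.39, the share of seed coat minus non-hair lists 0.0342 points, 5 motifs were called, the open flower share was 20.2%, and the site II, telo and CArG box differences were -0.316, -0.00229 and -0.304.

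Without members just past a gene end the rank difference was 3.87 points (adjusted p = 0.0264, exact). With the whole site searched, the telo box and DRE core differences were -0.0733 and -0.943. The best 8000 flower peaks gave 15.3% of distal sites in open and 14.7% in unopened flowers, and an overlap of 75 bp gave 21.5% in unopened flowers. With the best peaks, as many as the shortest list holds divided by 2, there were 3429 sites, a difference of -0.636 in lists per site, 2.22 in rank (adjusted p = 0.00439, exact) and -2.02 in the share of seed coat minus root lists (adjusted p = 0.0436, exact), 325 seed coat-only sites against non-hair, 77 hair-only and 19 non-hair-only, 85 whole root-only and 10 epidermal-only, 327 at 4 DPA and -0.132 for the DRE core. With the same number of peaks per list the rank difference was 3.23 (adjusted p = 0.0132, exact), hair-only sites numbered 85 and the DRE core gave -0.0226. Lists of single libraries gave -0.25 in lists per site, 902 seed coat-only sites against root and 1178 against non-hair. They gave 154 hair-only and 134 non-hair-only sites. These site counts, too, stand without shares of all sites.

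With each list left out in turn, the rank difference ran from 2.34 to 3.13 points (adjusted p from 0.0439 to 0.0954, exact, called without the 7 DPA pool, 4 DPA replicate 1 or non-hair replicate 4) and the difference in lists per site from -1.3 to -1. Counts ran from 396 to 682 for seed coat-only sites against root and from 564 to 926 against non-hair, from 58 to 150 for hair-only and 75 to 133 for non-hair-only sites, and from 200 to 567 for whole root-only and 29 to 94 for epidermal-only sites. Called motifs ran from 0 to 10, the W-box difference from -9.19 to -8.32 points, the DRE core difference from -0.340 to 0.338 and that of the evening element from -0.112 to 0.0466. The tissues' rank gap ran from -5.73 to -4.66. No share of all sites is set beside the site counts above, so they do not compare distal with all sites. Without read counts no limit of depth can be set for a missing peak.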

Other observations

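The distal flower peaks that met no site of the 11 lists were led in open flowers, at a rank percentile of 82.4, by positions near AT1G21000, ARF10 and AT4G22190, and were followed by IAA7, an auxin repressor gene (67.3). In unopened flowers they were led by HXK1, a hexokinase and sugar sensor gene (87.1), AT3G49220 and EMB269 (83.5 each), with TCP15, a growth regulator gene, at 73.0. Each stage rests on 1 list, and these peaks were 3.47% of the distal peaks in open and 7.36% in unopened flowers, against 2.10% and 4.02% of their other peaks.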
